A study of Homo sapiens with 24 samples.

Results

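The FOXO transcription factors and a set of genes that sit on the insulin to PI3K to AKT route were followed in A549 cells, an established human lung adenocarcinoma line, after the addition of the synthetic glucocorticoid (GC) dexamethasone (dex). The set held 10 genes of the 33087 in the deposited table: *FOXO1*, *FOXO3*, *FOXO4*, *IRS1*, *IRS2*, *PIK3R1*, *PIK3IP1*, *DDIT4*, *TXNIP* and *BCL6*. They were chosen by name, with earlier results of these data known, and all transcript rows that GENCODE assigns to a gene were summed. Counts of called genes set beside the share of all features are therefore descriptions. Poly-A RNA was sequenced after 1, 3, 5, 7, 9 and 11 h of treatment in 24 libraries, which makes 12 groups of 2. Dex-treated cells received 100 nM dex, and control cells received only the solvent, ethanol (EtOH). The labels give EtOH at 0.02% of the medium volume for dex-treated and control cells alike. All 12 groups were the same line in the same serum-containing medium, with no genetic change and no added insulin named in the labels. The labels call the libraries biological replicates but do not say that they came from separate cultures, so the p-values measure the spread between these libraries.

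Insulin and insulin-like growth factors act through receptors that phosphorylate the docking proteins IRS1 and IRS2, which bring phosphoinositide 3-kinase (PI3K) to the membrane and so switch on the kinase AKT. Active AKT phosphorylates the FOXO factors and keeps them out of the nucleus, and it also feeds the growth kinase complex mTORC1. When AKT is quiet, FOXO factors enter the nucleus and switch on genes of fasting, stress resistance and cell-cycle arrest. GCs are known to oppose insulin in liver, muscle and fat. All values here are levels of RNA, and neither FOXO location nor AKT activity was measured.

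Libraries held 6708864 to 13748598 counts (median 10109393.5). Levels within a gene are given as CPM, that is counts brought to a common library total, after scaling by the trimmed mean of M values (TMM). Each time point was tested by itself with edgeR's quasi-likelihood test on 2 dex and 2 EtOH libraries, with Benjamini-Hochberg adjustment over 19885 features, and a gene was called at an adjusted p of at most 0.1. Adjusted p-values come from edgeR unless DESeq2 is named. Of 8 known GC targets chosen as a check of the treatment, 7 were called higher at 1 h and all 8 at each later time point. The cells carried all 9 epithelial and A549 markers looked for, summing to 7858 CPM or more in every library. The lowest of them were *EPCAM*, at 4.02 to 11.3 CPM, and *KRT19*, at 7.93 to 21.5 CPM. Markers of leukocytes summed to at most 9.8 CPM, with 2 of 7 at 0 in all 24 libraries, and those of fibroblasts and muscle to at most 7.82 CPM. Of 4 endothelial genes, 3 were found, summing to at most 1.07 CPM. A list of 3 neuronal genes summed to between 17.8 and 52.9 CPM with dex and between 46.5 and 60.0 CPM with EtOH, and its part in the results was not tested.

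Because the FOXO factors and GR both act by binding DNA, the promoters of the 10 genes were searched for 3 short motifs, on both strands. The RefSeq promoters (build GRCh38.p14, short windows that lie mostly upstream of each start site) held 19 windows for the 10 genes among 35116 in all. The GC response element, spelled GNACA and TGTNC with any 3 bases between them, was found in a promoter of 0.48% of all genes and in 1 of the 10 genes (0.39% of all promoters and 1 of the 19). The FOXO core, GTAAACA, was found in a promoter of 4.19% of all genes and in 3 of the 10 genes (3.42% of all promoters and 3 of the 19). The E-box CACGTG, read by the glucose-sensing factor MLXIPL among others, was found in a promoter of 8.77% of all genes and in 1 of the 10 genes (7.26% of all promoters and 1 of the 19). The matches are shown 5′ to 3′ on the strand of the gene, with the motif in capitals, and the PIK3IP1 match is the FOXO core of the opposite strand.
TXNIP, GC response element, chr1:145996734-145996762, minus strand, first motif base 175 bases before the start site: agccaggaGCACACCGTGTCCacgcgcca
TXNIP, FOXO core, chr1:145996689-145996711, minus strand: ggctcctgGTAAACAaggaccgg
PIK3IP1, FOXO core, chr22:31292458-31292480, minus strand: agagaggcTGTTTACcagaacag
FOXO4, FOXO core, chrX:71095866-71095888, plus strand: ggcgagtgGTAAACAgagacgtc
IRS1, E-box, chr2:226799772-226799793, minus strand: ggctccgtCACGTGtttttctc
The promoter windows of *FOXO1*, *FOXO3*, *IRS2*, *PIK3R1*, *DDIT4* and *BCL6* held none of the 3 motifs as spelled here, which says nothing of binding elsewhere or at other spellings. Of the 4 genes with a match, *IRS1* was called with dex at 4 time points, *FOXO4* and *PIK3IP1* at none in edgeR (values below), and the matched row of *TXNIP* had too few reads to be tested.

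Dex raised *FOXO1*, *FOXO3*, *IRS2*, *DDIT4*, *BCL6* and, later, *PIK3R1*, and lowered *IRS1*. The largest increases over EtOH of the same hour were 4.46-fold for *FOXO1* at 5 h and 4.42-fold for *IRS2* at 9 h. The EtOH means of these genes were lowest at those hours (7.31 and 38.4 CPM). With dex, the *FOXO1* mean was highest at 7 h (40.4 CPM, against 32.6 CPM at 5 h). Of the 9 genes with enough reads to be tested, 2 were called at 1 h, 6 at 3 h, 6 at 5 h, 7 at 7 h, 7 at 9 h and 6 at 11 h. Over all features the called share was 0.865% at 1 h, 13.0% at 3 h, 23.2% at 5 h, 25.8% at 7 h, 18.3% at 9 h and 8.57% at 11 h. At 2 or more consecutive time points, 7 of the 9 were called, against 18.9% of all features. *IRS2* and *BCL6* were called at all 6 time points, as were 0.558% of all features. *FOXO4* and *PIK3IP1* had few reads, as did the single *TXNIP* transcript that could be matched, and their values are given below with their counts.

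**Figure D1:**
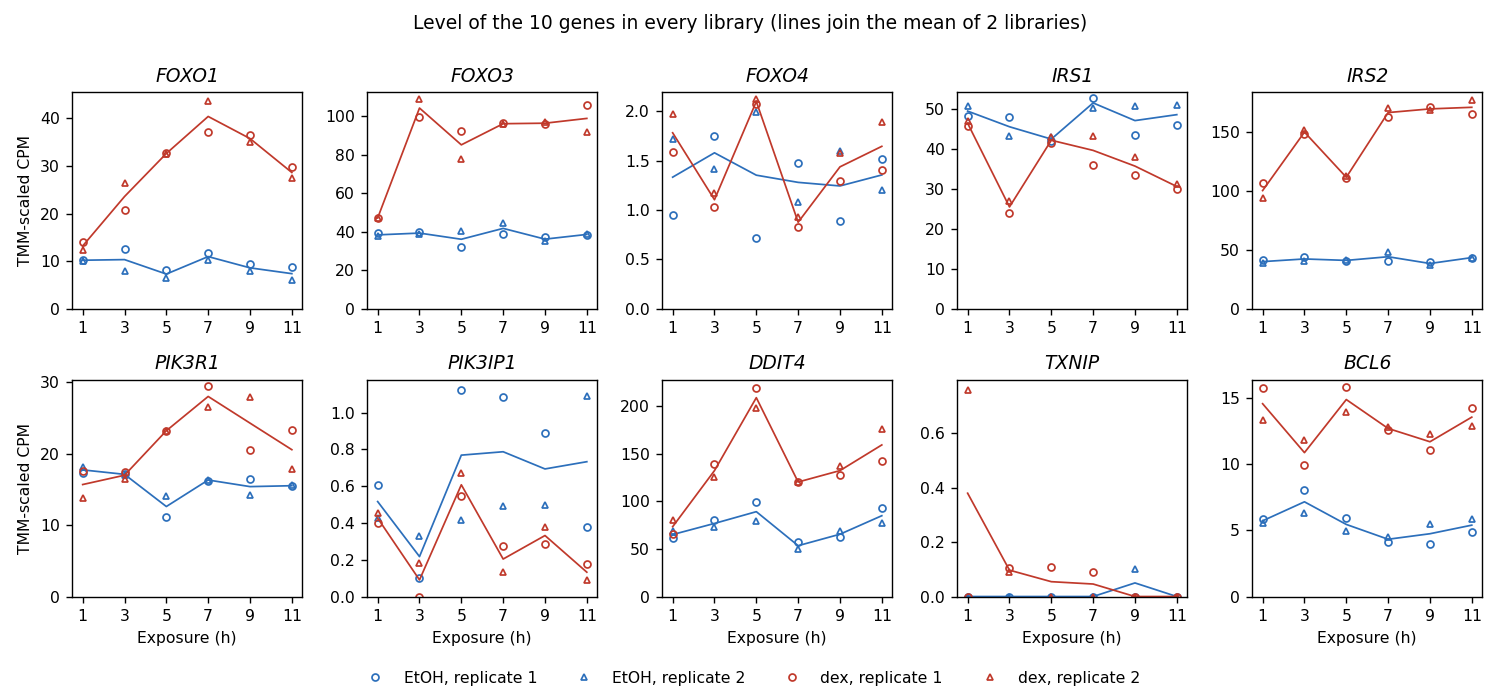
Level of each of the 10 genes (TMM-scaled CPM, vertical axis from 0, a different scale for each gene) against exposure (h, horizontal axis) in each of the 24 libraries, dex in red and EtOH in blue. Circles are replicate 1, triangles replicate 2, and lines join the mean of 2 libraries; the dex and EtOH points of IRS2 and BCL6 stand apart from 1 h, those of IRS1 meet at 5 h, and FOXO4, PIK3IP1 and TXNIP stay under 2.2 CPM.

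**Figure D2:**
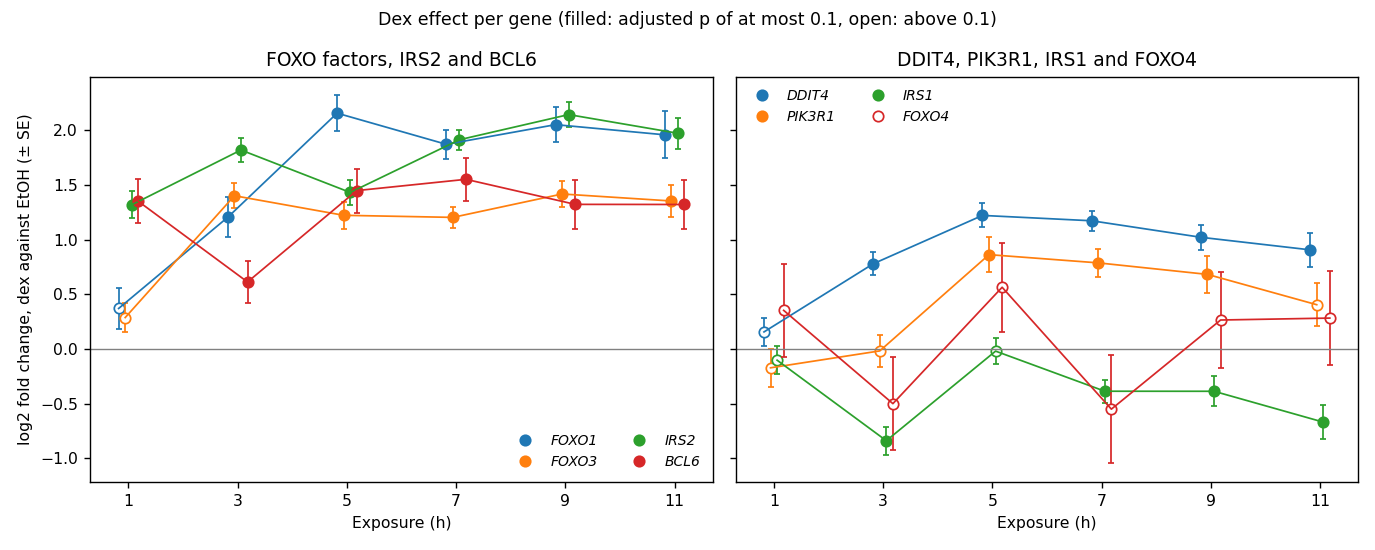
Log2 fold change of dex against EtOH (vertical axis, with its standard error from edgeR) at each exposure (h) for 8 of the 10 genes, offset sideways for legibility. Filled points have an adjusted p of at most 0.1 and open points a larger one; FOXO1, FOXO3 and DDIT4 are open at 1 h and filled from 3 h, IRS2 and BCL6 are filled throughout, and IRS1 is filled below 0 at 3, 7, 9 and 11 h.

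*FOXO1* (ENSG00000150907, GRCh38 chr13:40469953-40666597, minus strand) encodes the FOXO factor best known for driving gluconeogenic genes in liver. In the 12 EtOH libraries it held 6.10 to 12.6 CPM, with a median of 9.01. The dex libraries held 14.1 and 12.3 CPM at 1 h, 20.8 and 26.4 at 3 h, 32.7 and 32.5 at 5 h, 37.1 and 43.7 at 7 h, 36.6 and 34.9 at 9 h, and 29.8 and 27.4 at 11 h. From 3 h on, every dex library lay above every EtOH library of the whole course, while at 1 h dex replicate 2 lay below the highest EtOH library of another hour. The log2 fold change was 0.37 ± 0.19 (SE, n = 2 against 2) at 1 h, where it was not called (adjusted p = 0.790). It was 1.21 ± 0.18 at 3 h (adjusted p = 2.31e-05), reached 2.16 ± 0.17 at 5 h (adjusted p = 7.52e-15), and was 1.87, 2.05 and 1.96 at 7, 9 and 11 h (adjusted p = 5.27e-05 or less). The effect grew by 0.83 from 1 to 3 h (adjusted p = 0.0925). From 3 to 5 h it grew by a further 0.96 (adjusted p = 0.0331). Such steps were called for 4.35% and 5.96% of all features. Between 3 and 5 h the group mean went from 23.6 to 32.6 CPM with dex and from 10.3 to 7.31 CPM with EtOH. The change of *FOXO1* over time with EtOH alone was not called (adjusted p = 0.275). The step contrasts were added after the values had been seen.

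*FOXO3* (ENSG00000118689, chr6:108559835-108684774, plus strand) encodes the FOXO factor known for stress resistance and quiescence. The 12 EtOH libraries held 31.9 to 44.7 CPM, with a median of 38.6. With dex it held 47.0 and 47.2 CPM at 1 h, 99.6 and 108.6 at 3 h, 92.4 and 77.6 at 5 h, 96.3 and 95.7 at 7 h, 95.6 and 96.9 at 9 h, and 105.6 and 91.8 at 11 h. All 12 dex libraries lay above all 12 EtOH libraries. The 1 h difference, a log2 fold change of 0.29 ± 0.13, was not called (adjusted p = 0.727), whereas at 3 h it was 1.40 ± 0.11 (adjusted p = 2.25e-11). The effect on *FOXO3* grew by 1.11 from 1 to 3 h (adjusted p = 9.32e-05), and the change from 3 to 5 h was -0.18 (adjusted p = 0.664). At 5 to 11 h the log2 fold change lay between 1.20 and 1.42, with an adjusted p of 5.64e-05 or less. The table lists 3 *FOXO3* transcripts, with 6616, 6860 and 1878 counts, and all 3 were called higher at every time point from 3 to 11 h, with log2 fold changes of 0.92 to 1.47. Among all transcripts tested the called share was 7.08% at 3 h, 14.7% at 5 h, 16.2% at 7 h, 10.4% at 9 h and 5.05% at 11 h.

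*FOXO4* (ENSG00000184481, chrX:71096197-71103535, plus strand), the third ubiquitous family member, had few reads in its 2 matched transcripts, of 4 in GENCODE 29. It had 7 to 24 counts per library, 173 in the dex and 175 in the EtOH libraries, and 0.716 to 2.12 CPM. The log2 fold changes ran from -0.55 to 0.56 and none was called (adjusted p = 0.398 to 0.963). Without EtOH replicate 2 the 5 h value became 1.54 and was called (adjusted p = 0.0657), with EtOH replicate 1, at 0.716 CPM, as the only control left. With standard errors of 0.41 to 0.49, estimates as large as 0.56 were not called at this depth.

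Levels per transcript length allow the 3 family members to be set side by side, over the transcripts that could be matched. These were 1 of 3 in GENCODE 29 for *FOXO1*, 3 of 3 for *FOXO3* and 2 of 4 for *FOXO4*. With EtOH the medians were 12.8 for *FOXO3*, 3.16 for *FOXO1* and 1.07 for *FOXO4* in length-scaled CPM, and their ranges over the 12 libraries did not overlap. The length-scaled sum of the 3 genes was 13.7 to 20.04 in the EtOH libraries. It was 20.7 and 20.95 in the dex libraries at 1 h and 35.1 to 45.3 from 3 h on, above every EtOH library. *FOXO1* made up 12.8% to 23.5% of that sum with EtOH, 21.0% ± 2.5 (SD, n = 2) with dex at 1 h and 18.7% ± 1.8 at 3 h. Its share was 27.8% ± 2.2, 30.5% ± 3.0 and 27.3% ± 1.1 with dex at 5, 7 and 9 h, above the whole EtOH range, and 22.4% at 11 h, inside that range. These shares are descriptions of the libraries, with no test.

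*IRS2* (ENSG00000185950, chr13:109752698-109786568, minus strand) encodes the docking protein that carries much of the insulin signal in liver and is itself a known FOXO target. It was one of the first genes of the set to respond. The 12 EtOH libraries held 37.3 to 47.7 CPM, with a median of 41.2. With dex the level was 106.4 and 93.8 CPM at 1 h, 147.7 and 151.4 at 3 h, 110.6 and 112.1 at 5 h, 162.2 and 170.0 at 7 h, 170.4 and 168.0 at 9 h, and 164.5 and 176.6 at 11 h. No dex library came within the EtOH range. The log2 fold change was 1.32 ± 0.12 at 1 h (adjusted p = 1.44e-06), 1.82 ± 0.11 at 3 h, 1.43 ± 0.11 at 5 h, 1.91 ± 0.09 at 7 h, 2.14 ± 0.11 at 9 h (adjusted p = 9.71e-09) and 1.97 ± 0.14 at 11 h. The step up from 1 to 3 h, by 0.50, was called (adjusted p = 0.0527). The lower value at 5 h was not separated from its neighbours after adjustment: the step from 3 to 5 h was -0.39 (unadjusted p = 0.0111, adjusted p = 0.148) and that from 5 to 7 h was 0.47 (unadjusted p = 0.00248, adjusted p = 0.998). The effect at 11 h exceeded that at 5 h by 0.53 ± 0.14 (adjusted p = 0.0588), a contrast called for 2.36% of all features.

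*IRS1* (ENSG00000169047, chr2:226731317-226799759, minus strand), the docking protein that dominates in muscle and fat, moved the other way and with interruptions. The EtOH libraries held 48.3 and 50.6 CPM at 1 h, 47.9 and 43.2 at 3 h, 41.9 and 43.0 at 5 h, 52.8 and 50.2 at 7 h, 43.6 and 50.6 at 9 h, and 46.1 and 51.1 at 11 h. With dex it held 45.8 and 47.1 CPM at 1 h, 23.99 and 27.0 at 3 h, 41.4 and 42.9 at 5 h, 36.0 and 43.3 at 7 h, 33.4 and 38.0 at 9 h, and 29.9 and 31.3 at 11 h. The treatments overlapped at 5 h and not at the other time points. The log2 fold change was -0.84 ± 0.13 at 3 h (adjusted p = 1.10e-05) and -0.02 ± 0.12 at 5 h (adjusted p = 0.941). It was -0.39 at both 7 h (adjusted p = 0.00697) and 9 h (adjusted p = 0.0801) and -0.67 ± 0.15 at 11 h (adjusted p = 0.0171). The fall from 1 to 3 h (step of -0.74, adjusted p = 0.01) and the return from 3 to 5 h (step of 0.82, adjusted p = 0.00317) were both called, and the effect at 11 h was below that at 5 h by -0.66 ± 0.17 (adjusted p = 0.045). The call at 3 h held in every alternative run. The later calls were lost in several fits with a library left out. Without dex replicate 1 the 7 h value was -0.25 (adjusted p = 0.293) and the 9 h value -0.30 (adjusted p = 0.572). The 9 h value was -0.49 without dex replicate 2 (adjusted p = 0.268), larger than in the full fit though no longer called, and -0.27 without EtOH replicate 2 (adjusted p = 0.148). At 11 h the value stayed near that of the full fit but was no longer called, with -0.74 without EtOH replicate 1 (adjusted p = 0.161) and -0.60 without EtOH replicate 2 (adjusted p = 0.412), and a standard error of 0.28 in both fits.

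The RNA of the 2 docking protein genes changed in its ratio. Per length, *IRS2* and *IRS1* were at like levels with EtOH (medians of 9.94 and 9.76), and the ratio of *IRS2* to *IRS1* lay between 0.877 and 1.16 in the 12 EtOH libraries. With dex it was 2.57 ± 0.28 (SD, n = 2) at 1 h, 7.02 ± 0.46 at 3 h, 3.15 ± 0.05 at 5 h, 5.03 ± 0.49 at 7 h, 5.68 ± 0.58 at 9 h and 6.64 ± 0.12 at 11 h. All 12 dex libraries stood above all EtOH libraries, and the 3 h and 5 h values did not overlap.

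**Figure D3:**
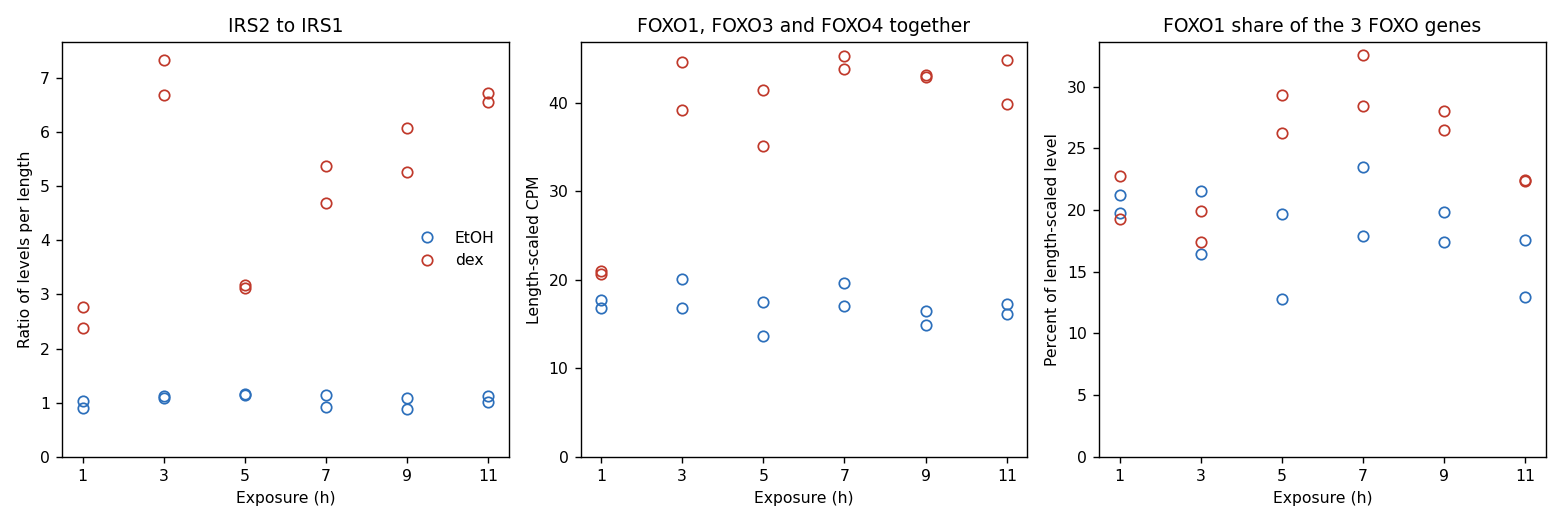
The 3 quantities from levels per transcript length in each library (1 circle each, dex red, EtOH blue) against exposure (h): the ratio of IRS2 to IRS1, the sum of the 3 FOXO genes (length-scaled CPM), and the percent of that sum that is FOXO1. The ratio stays between 0.877 and 1.16 with EtOH and runs from 2.38 to 7.35 with dex; the FOXO1 share with dex leaves the EtOH range at 5, 7 and 9 h only.

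*PIK3R1* (ENSG00000145675, chr5:68215720-68301821, plus strand) encodes the regulatory subunits of PI3K, p85α and its short forms, which hold the catalytic subunit and, when in excess, compete with it for docking sites. The EtOH libraries held 11.1 to 18.1 CPM, with a median of 16.3. Under dex the libraries held 17.6 and 13.8 CPM at 1 h, 17.5 and 16.5 at 3 h, 23.2 and 23.3 at 5 h, 29.5 and 26.6 at 7 h, 20.6 and 28.0 at 9 h, and 23.3 and 17.9 at 11 h. Until 3 h the treatments lay together, and from 5 h on every dex library but 1, replicate 2 at 11 h, lay above the whole EtOH range. The log2 fold change was -0.02 ± 0.15 at 3 h (adjusted p = 0.968), 0.86 ± 0.16 at 5 h (adjusted p = 4.26e-05), 0.79 ± 0.13 at 7 h (adjusted p = 1.01e-05), 0.68 ± 0.17 at 9 h (adjusted p = 0.0150) and 0.40 ± 0.20 at 11 h (adjusted p = 0.336). The step from 3 to 5 h, of 0.88, was called (adjusted p = 0.0245). Over that step the group mean went from 17.0 to 23.2 CPM with dex and from 17.1 to 12.6 CPM with EtOH. The mean with dex was highest at 7 h (28.0 CPM). The change over time with EtOH alone was not called (adjusted p = 0.317). *PIK3R1* was the last member to be called for the first time. The 2 dex libraries differed at 9 and 11 h, and the values there depended on which of them was kept. Without dex replicate 2 the log2 fold change was 0.42 at 9 h and 0.59 at 11 h. Without dex replicate 1 it was 0.87 at 9 h and 0.21 at 11 h.

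Of the 11 *PIK3R1* transcripts in the table, 6 had enough reads to be tested, and they did not give the same calls. PIK3R1-211 (2037 counts), which starts at the most upstream site, position 68215720, was called at 5 h (1.09), 7 h (0.59) and 9 h (0.93). PIK3R1-213 (928 counts), which starts nearby at position 68215776, was called at 5 h (0.89) and 7 h (1.14), and PIK3R1-210 (161 counts) at 7 h (1.35). PIK3R1-201, PIK3R1-202 and PIK3R1-216, which start at positions 68288368 to 68292568 and had 323 to 366 counts each, were not called at any time point. Their log2 fold changes ran from -0.666 to 0.849, from -0.498 to 0.865 and from -0.009 to 0.977, with standard errors of 0.357 to 0.525. Estimates as large as some called for the other transcripts were thus not called at these counts. Whether the upstream and downstream starts differ was not tested, and short reads that fit several transcripts of a gene cannot be told apart.

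**Figure D4:**
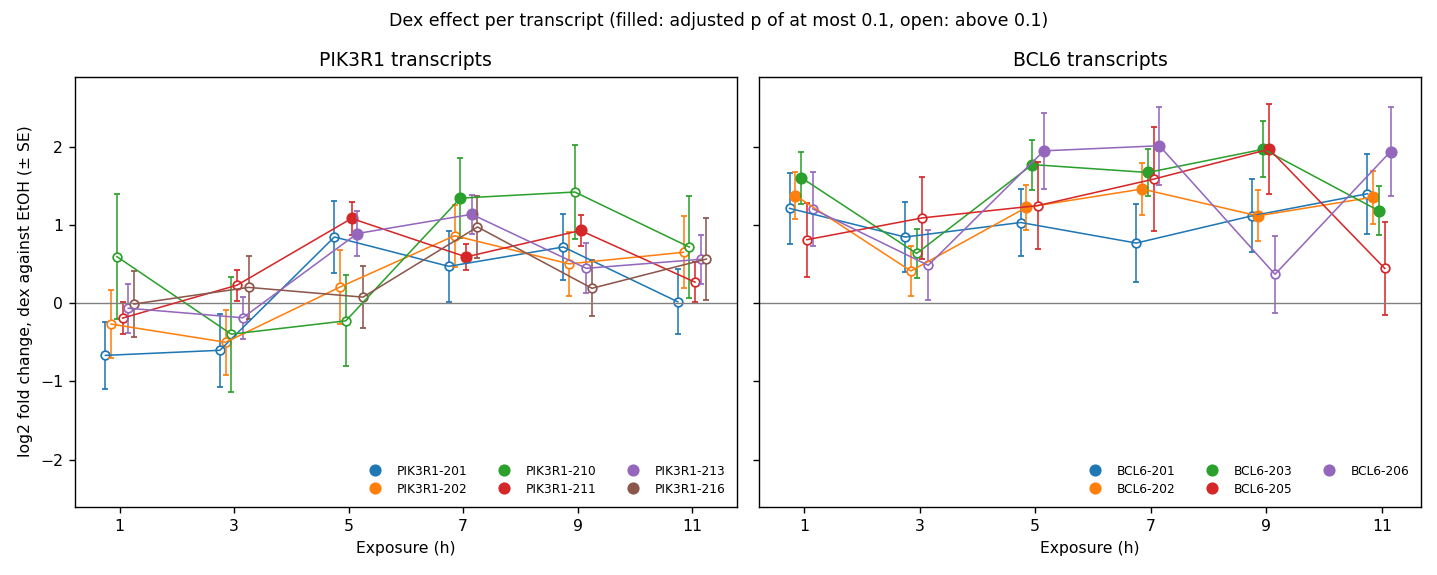
Log2 fold change of dex against EtOH (vertical axis, with its standard error from edgeR on transcripts) at each exposure (h) for the tested transcripts of PIK3R1 (left, 6) and BCL6 (right, 5), offset sideways. Filled points have an adjusted p of at most 0.1; the filled PIK3R1 points are at 5, 7 and 9 h in 3 transcripts, and every BCL6 estimate lies above 0.

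*PIK3IP1* (ENSG00000100100, chr22:31281593-31292534, minus strand) encodes a membrane protein that binds the catalytic subunit of PI3K and inhibits it. It had 0 to 11 counts per library, 34 in the 12 dex and 78 in the 12 EtOH libraries, and it passed the filter on low counts through the EtOH libraries. The counts with EtOH were 7 and 6 at 1 h, 1 and 4 at 3 h, 11 and 5 at 5 h, 11 and 5 at 7 h, 10 and 5 at 9 h, and 3 and 10 at 11 h. The counts with dex were 4 and 3 at 1 h, 0 and 2 at 3 h, 5 and 6 at 5 h, 3 and 1 at 7 h, 2 and 5 at 9 h, and 2 and 1 at 11 h. The scaled levels overlapped at 1, 3 and 5 h and lay apart, lower with dex, at 7, 9 and 11 h. No single time point was called: the log2 fold changes ran from -0.28 to -2.40 with standard errors of 0.63 to 1.22, and the smallest adjusted p was 0.111, at 7 h. Because the filter kept the gene through the EtOH libraries, where it was higher, its lower level with dex is given as a description. With single libraries left out the 7 h value ran from -1.13 without EtOH replicate 1 to -2.46 without dex replicate 1, and it was called without EtOH replicate 2 (-2.26, adjusted p = 0.0403). The 11 h value was -1.43 without EtOH replicate 2 (adjusted p = 0.934) and -2.02 without dex replicate 2 (adjusted p = 0.235), and it was called without dex replicate 1 (-2.89, adjusted p = 0.0756) and without EtOH replicate 1 (-2.93, adjusted p = 0.0668).

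*DDIT4* (ENSG00000168209, chr10:72273920-72276036, plus strand), also called REDD1, encodes an inhibitor of mTORC1 that acts through the TSC1-TSC2 complex and is induced by hypoxia, DNA damage and GCs. It was the most abundant member per length, with an EtOH median of 79.9 against 13.4 or less for each other member. Reads on short transcripts, such as PIK3R1-210 (395 bases), weigh more in this measure, so the members below *DDIT4* are not ranked here. The EtOH libraries held 61.4 and 68.9 CPM at 1 h, 80.9 and 72.9 at 3 h, 99.0 and 79.5 at 5 h, 57.1 and 49.9 at 7 h, 62.7 and 68.4 at 9 h, and 92.8 and 77.2 at 11 h. The dex libraries held 66.0 and 80.9 CPM at 1 h, 139.1 and 125.8 at 3 h, 219.7 and 198.6 at 5 h, 120.0 and 120.9 at 7 h, 127.5 and 137.4 at 9 h, and 142.9 and 176.0 at 11 h. The treatments overlapped at 1 h, and from 3 h on every dex library lay above every EtOH library. The log2 fold change was 0.16 ± 0.13 at 1 h (adjusted p = 0.925), 0.78 ± 0.11 at 3 h (adjusted p = 1.52e-06), 1.22 ± 0.11 at 5 h (adjusted p = 2.03e-12), 1.17 ± 0.09 at 7 h, 1.02 ± 0.12 at 9 h and 0.91 ± 0.16 at 11 h (adjusted p = 0.00210). The 11 h call was lost without EtOH replicate 2 (0.78, adjusted p = 0.103).

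*DDIT4* moved over time in both treatments. Its CPM fell from 5 to 7 h with dex and with EtOH, while the log2 fold change moved by -0.06 (adjusted p = 0.998). *DDIT4* was the only tested member whose level was called as changing over time with EtOH alone (adjusted p = 0.0212, against 3.18% of all features), with group means between 53.5 CPM at 7 h and 89.3 CPM at 5 h. With no filter on low counts *FOXO1* was called as well (adjusted p = 0.0906). The *DDIT4* call was lost without EtOH replicate 1 (adjusted p = 1) and EtOH replicate 2 (adjusted p = 0.159), each in a fit with the other treatment. The antisense gene *DDIT4-AS1* (chr10:72274915-72275980) covers 847 of the 1748 exon bases of *DDIT4* and had 23610 counts against 25445, a median of 91.9% of the *DDIT4* count per library. The use of strand in the counting is not given in the sources used here, so reads of the 2 genes cannot be told apart. With both genes summed, an alternative added after their counts were seen, the log2 fold change was 0.06, 0.81, 1.27, 1.301, 0.95 and 0.93 from 1 to 11 h, and each time point kept its call.

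*TXNIP* (ENSG00000265972, chr1:145992435-145996600, minus strand) encodes an alpha-arrestin that binds thioredoxin, limits glucose uptake and is induced by glucose through MLXIPL. Only 1 of its 4 GENCODE transcripts, TXNIP-201 (1225 bases), could be matched to a row of the table. That row held 10 counts in all, 9 in the dex libraries, of which 5 were in dex replicate 2 at 1 h, and 1 in the EtOH libraries. It was not tested, and its counts say nothing of the level of the gene's other transcripts, which were not analysed here.

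*BCL6* (ENSG00000113916, chr3:187721377-187745727, minus strand) encodes a zinc-finger repressor, known from germinal-centre B cells and as a FOXO target. Together with *IRS2* it was called from the first hour. The 12 EtOH libraries held 3.999 to 8.02 CPM, with a median of 5.53. The dex libraries held 15.8 and 13.4 CPM at 1 h, 9.93 and 11.8 at 3 h, 15.8 and 13.97 at 5 h, 12.6 and 12.8 at 7 h, 11.1 and 12.3 at 9 h, and 14.3 and 12.9 at 11 h. Every dex library lay above every EtOH library. The log2 fold change was 1.35 ± 0.20 at 1 h (adjusted p = 0.000664), 0.61 ± 0.19 at 3 h (adjusted p = 0.0394) and between 1.32 and 1.55 at 5 to 11 h (adjusted p = 0.00185 or less). The drop from 1 to 3 h, by -0.74, was not called (adjusted p = 0.14), and the step from 3 to 5 h, by 0.84, was (adjusted p = 0.073). Group means at 1, 3 and 5 h were 14.6, 10.9 and 14.9 CPM with dex. With EtOH they were 5.72, 7.16 and 5.45 CPM. The 3 h call was the weakest of the 6: it was lost with DESeq2 (adjusted p = 0.316), with 1 transcript standing for the gene (adjusted p = 0.308), without dex replicate 2 (adjusted p = 0.223) and without EtOH replicate 2 (adjusted p = 0.301). BCL6-202, with 692 counts, and BCL6-203, with 677, were each called at 1, 5, 7, 9 and 11 h, and BCL6-201, with 288, at none. The called share of all transcripts at 1 h was 0.415%.

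The dex effect differed between time points for 6 of the 9 tested members, in a test of all treatment-by-time terms over the 24 libraries that called 13.7% of all features. These were *FOXO1* (adjusted p = 7.35e-05), *FOXO3* (adjusted p = 9.22e-05), *IRS2* (adjusted p = 0.00059), *DDIT4* (adjusted p = 0.0012), *IRS1* (adjusted p = 0.00471) and *PIK3R1* (adjusted p = 0.00541). The effect on *BCL6* was not shown to differ (adjusted p = 0.134). The terms of *IRS1* and *PIK3R1* were no longer called without EtOH replicate 1 (adjusted p = 0.2 and 0.201), and those of *IRS1*, *PIK3R1* and *DDIT4* without EtOH replicate 2 (adjusted p = 0.121, 0.153 and 0.121). Between 5 and 11 h, *IRS1* and *IRS2* were the members whose change in effect was called, and they moved in opposite directions.

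For each tested member, the 2 genes whose log2 CPM followed it most closely over the 24 libraries were found among 15316 genes, as a description. *FOXO1* was followed by *GOLPH3* and *NEDD4* (both Pearson r = 0.978), *FOXO3* by *FGD4* (0.989) and *JCAD* (0.988), and *IRS2* by *CDC42EP3* and *THBD* (both 0.988). *IRS1* was followed by *CYP24A1* (0.909) and *GCNT2* (0.892), and *PIK3R1* by *ENAH* (0.905) and *DOCK4* (0.904). *BCL6* was followed by *CEBPB* (0.944) and *PDK4* (0.940), and *DDIT4* by its antisense neighbour (0.988) and *CDKN1A* (0.952). The sparse *FOXO4* and *PIK3IP1* had no such close match (highest r = 0.701 and 0.806). These libraries share the treatment and its hours, so any gene with a like time course of its dex effect scores high.

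The rest of the pathway was read from lists written down by name, also with earlier results of these data known. A gene counts below as called where it passed in 1 direction at 2 or more consecutive time points, as 9.75% of all features did upwards and 8.62% did downwards. From the insulin receptor to AKT, 3 of 19 tested genes rose and 1 fell. The adaptor gene *SHC1*, which links receptors to Ras, rose most (log2 fold change of 1.24 ± 0.10 at 5 h, from 174.5 to 416.1 CPM), and the PI3K genes *PIK3R3* and *PIK3C2B* rose by 0.75 and 0.87 at 5 h. The receptor gene *IGF1R* fell by 0.28 at 5 h and by 0.43 at 11 h. The median of the list lay between -0.02 and 0.16 over the time points, beside -0.003 to 0.005 for all features.

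Among 20 tested genes for other brakes on insulin and PI3K signalling, 7 rose and 3 fell. *ERRFI1*, a feedback inhibitor of the EGF receptor and a known GC target that also stood in the treatment check, rose at all 6 time points, by 1.76 ± 0.11 at 1 h and 2.14 ± 0.12 at 9 h. *SOCS3*, a suppressor of cytokine and insulin receptor signalling, was called from 7 h, where it rose by 1.08, and by 1.21 at 9 h. *SOCS1* was called at 3, 5 and 7 h from an EtOH level close to 0 (1.44 against 0.0415 CPM at 3 h), where a fitted fold change depends on the prior count. It passed the filter on low counts through the dex libraries, so its place among the 7 is no support for their count. *SOCS2*, *INPP4B*, a phosphatase of a PI3K product, and *GRB10*, an adaptor that inhibits the insulin receptor, fell by 0.63, 0.63 and 0.27 at 7 h.

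In the mTORC1 branch, 2 of 30 tested genes rose and 3 fell, close to the shares of all features. *TSC2*, the partner through which *DDIT4* acts, rose by 0.33 at 3 h and 0.31 at 5 h. *PRKAA2*, a catalytic subunit of AMP-activated kinase, fell by 0.84 at 5 h and by 1.04 at 11 h. *DDIT4L*, the paralogue of *DDIT4*, was low, with group means of 2.32 CPM or less, and was called lower at 3 and 5 h only. At 3 h it held 0.568 CPM with dex and 2.32 CPM with EtOH (log2 fold change of -1.98 ± 0.46, adjusted p = 0.00292). Its log2 fold changes of -0.171, -0.245 and -1.36 at 7, 9 and 11 h were not called.

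Of 27 tested genes known as FOXO targets, 9 rose and 0 fell under that rule in edgeR. Several of these, *PDK4* among them, are also known GC targets in their own right. *PDK4*, which turns cells from glucose to fat as fuel, rose by 1.57 ± 0.13 at 1 h and 2.24 ± 0.12 at 9 h. *GADD45A*, a stress and growth-arrest gene, rose by 0.95 at 1 h and 2.14 at 11 h, and *CDKN1A*, which encodes the cell-cycle inhibitor p21, by 1.28 at 3 h and 1.56 at 7 h. *PDK4* and *GADD45A* were called at 1 h, when *FOXO1*, *FOXO3* and *FOXO4* had log2 fold changes of 0.37, 0.29 and 0.35 that were not called. Whether FOXO factors had a part in any of these rises was not tested. At single time points, 9, 8, 9, 6 and 7 genes of the list were called higher at 3, 5, 7, 9 and 11 h. Those called lower were 1, 1, 1, 2 and 3. The median of the list was 0.07 to 0.14.

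Among 26 tested genes for kinases and modifiers of FOXO proteins, 7 rose and 3 fell. *SGK1*, a kinase that phosphorylates FOXO3 much as AKT does and a GC target of the treatment check, was called at all 6 time points (0.57 at 1 h and 1.43 at 3 h). The 14-3-3 genes *SFN* and *YWHAQ*, whose products hold phosphorylated FOXO in the cytoplasm, rose by 0.89 and 0.81 at 5 h. *CDK2* fell by 0.86 at 5 h, the deacetylase gene *SIRT1* by 0.57 and the ubiquitin ligase gene *SKP2* by 0.32.

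Around *TXNIP*, 6 of 17 tested genes for alpha-arrestins, thioredoxin and glucose sensing rose and 3 fell. The arrestin genes moved apart: *ARRDC2* rose by 1.69 and *ARRDC1* by 1.38 at 5 h, whereas *ARRDC3* fell at all 6 time points, by 1.51 at 1 h and 1.80 at 3 h. *MLXIPL*, low at 0.680 CPM with EtOH at 5 h, rose by 1.70 there. The glucose transporter gene *SLC2A3* fell by 1.47 at 5 h, and the thioredoxin reductase gene *TXNRD1* by 0.58 at 3 h and 0.84 at 11 h. Among 11 tested partners and relatives of BCL6, the relative *ZBTB7B* rose by 1.13 and the corepressor gene *NCOR1* by 0.32 at 5 h. The median log2 fold change of that list lay between -0.14, at 9 h, and 0.26, at 11 h.

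**Figure D5:**
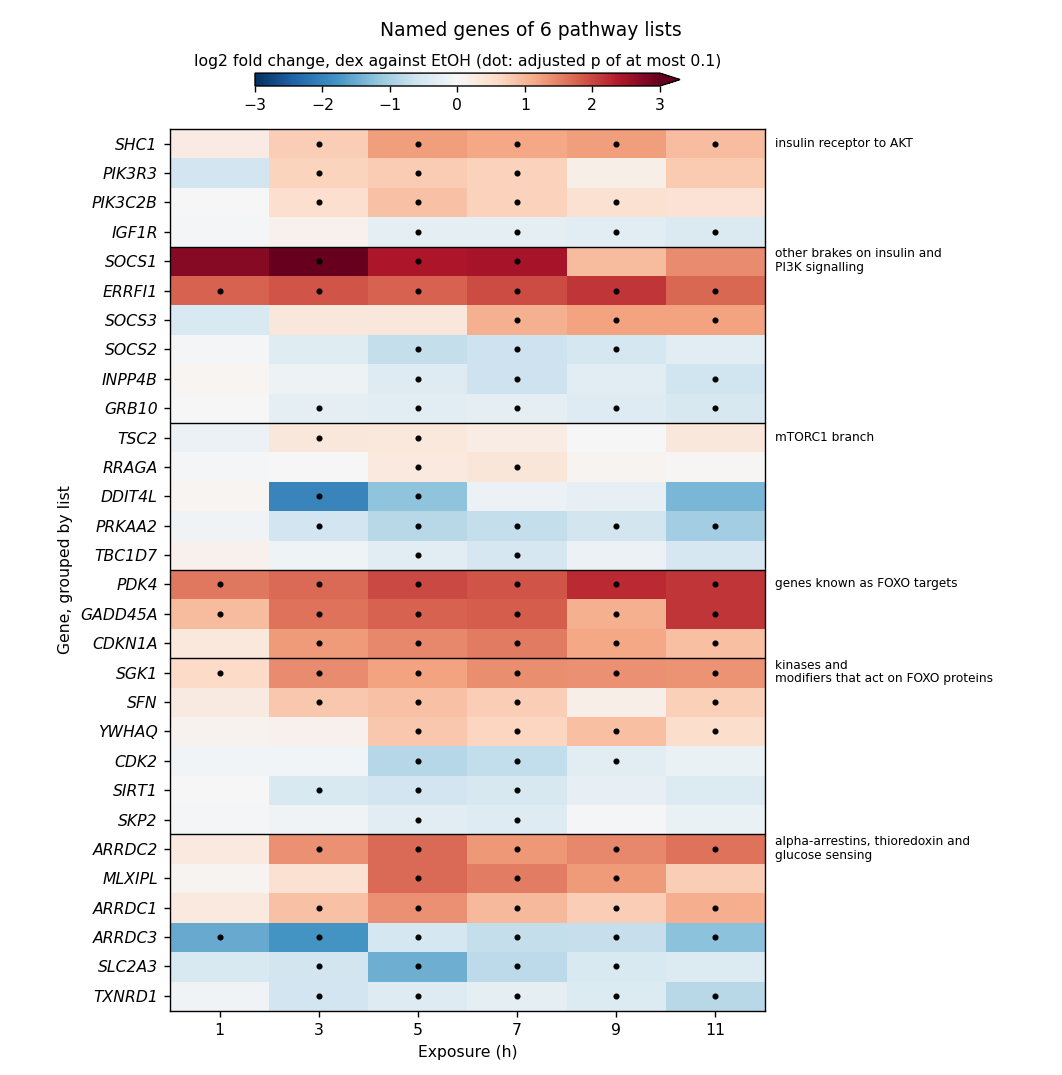
Log2 fold change of dex against EtOH (colour, red higher with dex and blue lower, scale cut at 3) at each exposure (h, columns) for the named genes of 6 pathway lists (rows), chosen among those called at 2 or more consecutive time points. A dot marks an adjusted p of at most 0.1; ERRFI1, PDK4, GADD45A, SGK1 and ARRDC3 carry a dot in all 6 columns.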

How the data were processed

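The authors mapped single-end reads of poly-A libraries to GENCODE 19 (hg19) transcripts with Bowtie and tallied them with samtools. The deposited values are counts per transcript, not normalized, and the placing of reads that fit several transcripts is not given in the sources used here. The paper's methods state triplicates, whereas the labels give 2 replicates per group. The treatment text of the labels names 1 h for all libraries, and the duration of treatment in the same labels, 1 to 11 h, was used.

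Of 119207 transcripts, 110262 (94.1% of counts) were joined to 33087 genes of GENCODE 29 (GRCh38) by identifier without version and summed, and 8945 stayed as features of their own. The row of unplaced reads held 0 counts. Coordinates come from GENCODE 29. Features were kept by filterByExpr over the 12 groups and tested with edgeR 4.0.16 (TMM, robust quasi-likelihood F test, R 4.3.3), each time point by itself; 9 of the 10 genes were kept. The standard error is the log2 fold change over the root of F. The test of differing effects, the contrast of 11 h and 5 h and the steps used 1 fit over 24 libraries, and the EtOH course 1 over 12. The scripts were tested on simulated data. CPM values carry no pseudocount, and the correlations used log2 CPM with a prior count of 2. Levels per length are counts per kb of transcript, summed per gene and scaled as CPM. Reads placed on a gene's short transcripts thus weigh more in them. Replicates of no group agreed within counting noise (chi-square per degree of freedom of 2.53 to 17.2), so no library was counted as a duplicate. Intervals from counts were not used, and the 2 libraries per group limit the precision.

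All 10 members are named. Of each list, up to 3 genes per direction with the largest mean absolute log2 fold change are named among those called in that direction at 2 or more consecutive time points, and for each tested member the 2 closest genes. The genes and lists were chosen with earlier results of these data known. The alternatives were DESeq2 1.42.0, its size factors, no filter, 10 counts in every library, 1 transcript per gene, 1 fit over 24 libraries, a threshold of 0.05, the replicate number as a block, and each replicate left out. RefSeq protein sequences were not used here, and 1 gene of the lists is not reported here. Figures were drawn with matplotlib 3.10.9.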

Additional observations from a re-analysis of the deposited data

Results flagged for a closer look

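The dex effect on 6 genes differed between the 6 time points, in edgeR's quasi-likelihood test of the treatment-by-time terms with Benjamini-Hochberg adjustment, which called 13.7% of all features. The adjusted p was 7.35e-05 for *FOXO1*, whose log2 fold change went from 0.37 at 1 h to 2.16 at 5 h. It was 9.22e-05 for *FOXO3*, from 0.29 at 1 h to 1.40 at 3 h, and 0.0012 for *DDIT4*, from 0.16 at 1 h to 1.22 at 5 h. It was 0.00059 for *IRS2*, which was called at all 6 time points and had log2 fold changes of 1.32 to 2.14. It was 0.00541 for *PIK3R1*, from -0.17 at 1 h to 0.86 at 5 h. It was 0.00471 for *IRS1*, whose log2 fold change was -0.84 at 3 h, -0.02 at 5 h and -0.67 at 11 h.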

How the results depend on the processing

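Of the calls of single members, 365 values under the alternatives kept their direction and call and 14 lost the call, and 0 reversed. Among values not called, 6 became called and 6 changed sign: *FOXO4* at 9 h without EtOH replicate 1, *IRS1* at 5 h without dex replicate 1 and without EtOH replicate 2, *PIK3R1* at 3 h with 1 transcript per gene (0.23) and without dex replicate 2, and *PIK3IP1* at 5 h without EtOH replicate 1. With each replicate left out in turn, the log2 fold change ran from -0.12 to 0.72 for *FOXO4*, from -0.045 to 0.01 for *IRS1*, from -0.054 to 0.021 for *PIK3R1* and from -0.87 to 0.53 for *PIK3IP1* at those time points. The count of members called at 11 h was 4 to 7 with a replicate left out. The count of members whose effect differed between time points was 6, and 3 to 6 with a replicate left out. The count that changed with EtOH was 1, 2 without the filter (*FOXO1*, adjusted p = 0.0906 in edgeR, was added) and 0 with a replicate left out. *IRS1* at 9 h also lost its call with DESeq2 (adjusted p = 0.215) and 1 transcript per gene (adjusted p = 0.122), and *PIK3IP1* gained one at 11 h in 1 fit over 24 libraries (-2.40, adjusted p = 0.0744). The cause of these changes was not tested. The lists' named genes kept 1436 calls and lost 156. A lone library left by leaving out its partner is assumed to vary like the others.

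The paper's methods call the EtOH control paired. The deviations of same-numbered libraries had correlations of -0.059 to 0.135, which does not settle whether the libraries were paired. With the replicate number as a block, 2, 6, 6, 7, 7 and 6 members were called from 1 to 11 h, and no call of a member changed; of the named list genes, *GRB10* and *TSC2* lost theirs at 3 h (adjusted p = 0.198 and 0.177). Counts limit *FOXO4*, *PIK3IP1* and *TXNIP*.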
